A study of Bos taurus and Sus scrofa with 6 samples.

Results

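The cell division genes described here are 40 genes whose products carry a cell through DNA replication and mitosis, and they were followed across the cell types of prepubertal cattle and pig testes. They were found by symbol in the gene tables of the single-cell count matrices, which listed 38 of them among 19994 genes in cattle and 35 among 22694 genes in pig, with 33 in both. MKI67 and MCM4 were not listed under their symbols in cattle, nor CDK1, CCNA2, AURKA, PTTG1 and PRC1 in pig, and these were left out of the species concerned. Of the 40, 29 act in mitosis and 11 in the copying of DNA. The mitotic genes comprise 9 kinases, cyclins and their small subunits, 11 proteins of the kinetochore and spindle, 7 of anaphase and cytokinesis, and 2 of the chromosome.

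Total testicular cells, with no sort for any cell type and no treatment, were profiled by droplet single-cell RNA-sequencing from 3 Holstein bulls at 4.5 months of age and 3 mixed-breed pigs at 3 months of age, with 1 library for each animal. Species, breed and age cannot be told apart in this design. Of the 3 libraries of each species, 2 share a testis number in the labels although their animal tags differ, and all 3 were counted as animals. The libraries held 5805223 to 53325608 unique molecular identifiers (UMIs, each standing for 1 captured RNA molecule), and 3444, 8138 and 5900 cells of cattle 1, 2 and 3 and 3162, 3808 and 2236 cells of pig 1, 2 and 3 were kept. Cattle 1 and pig 1 were the shallowest libraries. Pairs of libraries shared 9 to 61 cell barcodes, at most 1.21% of the smaller library.

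A cell enters division by raising the cyclin-dependent kinase CDK1 and its cyclins, is held at the spindle checkpoint until every chromosome is attached through its kinetochore, and is released when CDC20 and UBE2C direct the destruction of the B cyclins and of securin, the product of PTTG1. The genes are copied beforehand by the MCM helicase and its partners, so replication genes mark S phase and mitotic genes mark the phases after it. In the prepubertal testis spermatogonia divide to build the germ line, Sertoli cells multiply before they mature, and Leydig cells make steroids. Many genes of mitosis carry CCAAT boxes and a cell cycle homology region (CHR, TTTGAA) near their start, while genes of replication often carry a site for E2F factors.

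The stretch of 250 bases before the gene start was read for 39 of the 40 genes from the pig RefSeq annotation of Sscrofa11.1, the build named for the pig data. CCAAT, on either strand, was present in 27 of the 39 stretches (69.2%), against 31.9% of 19531 protein-coding genes. TTTGAA was present in 10 (25.6% against 12.5%), and TTCCCGC or TTGGCGC, the letters searched for E2F, in 8 (20.5% against 8.12%), with overlapping matches counted for each motif. CCAAT and TTTGAA stood together in 7 stretches (17.9% against 4.19%). The stretches of 5 genes that recur in the results, picked after the matches had been counted, are printed 5′ to 3′ on the strand of the gene, with every match in capitals, including reverse complements such as ATTGG and TTCAAA. A match is a description of the letters and no evidence of binding. UBE2C (chr17:48018153-48018402, plus strand) and TOP2A (chr12:22001050-22001299, plus strand) are shown for holding 5 CCAAT matches each, MKI67 (chr14:137296313-137296562, minus strand) for holding 2 matches of each motif, CKS2 (chr14:904512-904761, plus strand) for 4 CCAAT matches and MCM6 (chr15:15923388-15923637, plus strand) as a replication gene with 2 E2F matches.
UBE2C: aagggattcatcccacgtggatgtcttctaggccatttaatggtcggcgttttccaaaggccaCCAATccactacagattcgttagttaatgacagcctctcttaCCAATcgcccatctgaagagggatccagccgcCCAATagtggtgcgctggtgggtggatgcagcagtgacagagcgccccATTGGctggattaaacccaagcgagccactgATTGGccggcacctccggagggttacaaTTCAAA
TOP2A: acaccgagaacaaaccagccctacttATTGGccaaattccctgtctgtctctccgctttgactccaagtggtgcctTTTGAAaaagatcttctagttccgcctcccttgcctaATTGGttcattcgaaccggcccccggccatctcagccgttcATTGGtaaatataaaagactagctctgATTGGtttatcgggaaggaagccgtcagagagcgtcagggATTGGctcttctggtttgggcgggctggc
MKI67: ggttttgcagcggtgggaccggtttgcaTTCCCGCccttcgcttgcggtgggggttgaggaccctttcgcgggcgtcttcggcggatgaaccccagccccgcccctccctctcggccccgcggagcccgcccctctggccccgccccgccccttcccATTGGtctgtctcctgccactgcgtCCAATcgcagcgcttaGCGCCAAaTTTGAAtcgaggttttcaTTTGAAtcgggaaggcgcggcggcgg
CKS2: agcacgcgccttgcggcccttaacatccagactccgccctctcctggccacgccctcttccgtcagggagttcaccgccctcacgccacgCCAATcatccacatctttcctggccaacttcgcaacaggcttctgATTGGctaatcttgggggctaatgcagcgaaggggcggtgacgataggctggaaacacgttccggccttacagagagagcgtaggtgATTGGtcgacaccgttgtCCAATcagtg
MCM6: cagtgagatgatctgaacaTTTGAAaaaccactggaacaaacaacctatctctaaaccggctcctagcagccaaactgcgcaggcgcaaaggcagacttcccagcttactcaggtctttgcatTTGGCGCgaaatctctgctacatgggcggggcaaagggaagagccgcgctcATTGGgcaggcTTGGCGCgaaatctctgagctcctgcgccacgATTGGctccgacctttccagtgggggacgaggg
BIRC5, MCM4, MCM7, PLK1, PRC1, TPX2 and TYMS held no match to any of the 3 motifs in this window.

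Cells were clustered without the 40 genes and without other cell cycle genes, and clusters were named from marker genes. Each species held clusters that were germ-like (cattle 519 cells, pig 1728), Sertoli-like (4226 and 3706), stromal-like (8151 and 738), lymphocyte-like (2011 and 148) and Leydig-like (1814 and 1062), beside macrophage-, endothelial- and dendritic-like cells. Genes tied to division that stood on no list, such as MXD3 and H2AFX, stayed in, and 2 clusters described below were made up mostly of dividing cells. The named clusters carried 3 to 11 markers of their type at a level at least 2 times that of the median cluster. The cattle germ-like cluster had DDX4 and SALL4, the germ cell markers, at 82.8 and 37.1 counts per 1e+06 UMIs (CPM) and was 3.84 times as deep as a typical cell of its libraries. The pig lymphocyte-like cluster also carried 8 stromal markers, and 112 of the 115 stromal-like cells of pig 1 came from a cluster that had the Leydig genes CYP17A1 and INSL3 among its leading genes. The part of these markers in the results below was not tested. Clusters with no clear type held 37 and 16 cells of cattle 2 and cattle 3 and 19, 167 and 171 cells of pig 1, 2 and 3.

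To count dividing cells at equal depth, each cell was thinned to 500 UMIs, and a cell was scored as dividing when it then held UMIs of at least 2 different mitotic genes. Germ-like cells had the largest mean share of scored cells in both species. In cattle the share was 19.5% (16 of 82 cells, 95% exact binomial interval 11.6 to 29.7), 16.0% (35 of 219, 11.4 to 21.5) and 24.8% (54 of 218, 19.2 to 31.1), with a mean of 20.1% ± 4.42 (SD, n = 3). In pig it was 26.8% (175 of 653, 23.4 to 30.4), 25.9% (97 of 375, 21.5 to 30.6) and 33.0% (231 of 700, 29.5 to 36.6), with a mean of 28.6% ± 3.88 (SD, n = 3). In every animal the germ-like share was above the shares of Sertoli-, stromal-, lymphocyte- and Leydig-like cells of that animal under this rule. The order depended on the rule. With at least 3 mitotic genes required, stromal-like cells of pig 3 were scored in 19.3%, above the highest pig germ-like share of 14.9%. The ranges of lymphocyte-like and germ-like shares then overlapped in both species, while Sertoli- and Leydig-like shares stayed below every germ-like share. The intervals cover counting error within a library only. No p-value is given for these shares because they are a score over the chosen genes. A cell with low levels of several mitotic genes can also be scored, and whether each scored cell was dividing was not tested.

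Lymphocyte-like cells of both species and stromal-like cells of pig had a larger SD between animals than germ-like cells. In cattle, Sertoli-like cells were scored in 1.23%, 0.336% and 0.299% of cells and stromal-like cells in 3.31%, 2.23% and 1.33%. Lymphocyte-like cells were scored in 11.7% of cells in cattle 1 (34 of 291, interval 8.23 to 15.9) but in 1.94% (17 of 876, 1.13 to 3.09) in cattle 2 and 0.785% (6 of 764, 0.289 to 1.70) in cattle 3. The lymphocyte-like intervals of cattle 1 lay above those of the other animals, and the mean of 4.80% ± 5.99 (SD, n = 3) rests on that animal. In cattle 1, 80 lymphocyte-like and 163 stromal-like cells had under 500 UMIs and were not scored. Leydig-like cells, which served as the low comparator, were scored in 0.105%, 0.230% and 0.256% of cells, a single cell in each animal. Their median depth of 969.5, 1813 and 5145 UMIs lay below that of the germ-like cells, 3554.5, 6172 and 16908 UMIs, before thinning.

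In pig, Sertoli-like cells were scored in 5.22%, 2.15% and 2.86% of cells. Stromal-like cells were scored in 4.35% (5 of 115) and 4.16% (16 of 385) of cells in pig 1 and pig 2 and in 23.5% (56 of 238) in pig 3, so the mean of 10.7% ± 11 (SD, n = 3) rests on pig 3. With every barcode of at least 500 UMIs the stromal-like shares were 4.89%, 2.97% and 3.91%, a mean of 3.92%, and pig 3 no longer stood apart. Different clusters held most of these cells in each pig, as given below. Lymphocyte-like cells were scored in 22.7% (5 of 22), 4.76% (1 of 21) and 17.1% (18 of 105), counts too small to order the animals. Leydig-like cells were scored in 2.03%, 5.81% and 9.09% of cells (18 of 888, 5 of 86 and 8 of 88), at median depths of 819, 2941.5 and 3939 UMIs against 2808, 6082 and 14775 UMIs in germ-like cells. The comparator was therefore higher in pig than in cattle, and the Sertoli-, stromal- and lymphocyte-like shares of pig 2 and the Sertoli-like share of pig 3 lay below it. Most scored Sertoli-like cells of pig 2 (37 of 50) were nevertheless in 1 cluster, described below. Without thinning, the mean germ-like shares were 90% in cattle and 90.6% in pig, and the Leydig-like means were 1.47% and 24.8%. For the remaining types, macrophage-like cells were scored in 5.45%, 2.35% and 1.80% of cells in cattle, and dendritic-like cells in 4%, 7.48% and 5.41%, from 1, 8 and 2 cells.

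**Figure D1:**
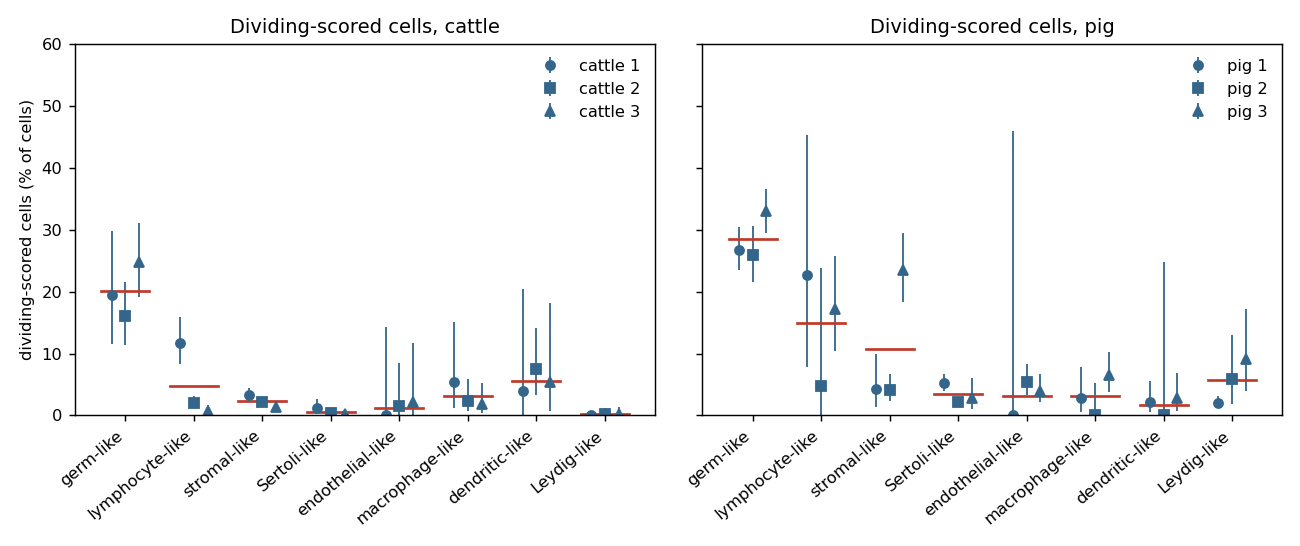
Share of cells of each type scored as dividing after thinning to 500 UMIs, in percent, for cattle and pig; each point is 1 animal with its exact binomial interval as a vertical line, and the red bars give the mean of 3 animals. The germ-like points lie between 16.0% and 24.8% in cattle and between 25.9% and 33.0% in pig, and the pig 3 stromal-like point (23.5%) and the cattle 1 lymphocyte-like point (11.7%) stand away from the other animals of their type.

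The mitotic genes were spread over many germ-like cells and gathered in few stromal-like cells. In cattle, 42.7%, 49.8% and 48.2% of germ-like cells held no UMI of a mitotic gene after thinning, and 3.66%, 1.37% and 6.42% held 4 or more. Of stromal-like cells, 89.6%, 91.3% and 91.6% held none, and 1.99%, 1.30% and 0.615% (24, 50 and 18 cells) held 4 or more. Scored cells gave 49.8%, 26.3% and 45.9% of the mitotic UMIs of cattle germ-like cells, but 75.3%, 75.3% and 61.0% of those of cattle stromal-like cells. In every bull the stromal-like figure was above the germ-like one, and the same order held in pig, with 51.6%, 43.8% and 53.8% for germ-like and 66.2%, 66.0% and 84.6% for stromal-like cells. These UMIs were counted before thinning, and germ-like cells were deeper. Their medians were 3554.5, 6172 and 16908 UMIs against 688, 1548 and 4281 in cattle. In pig they were 2808, 6082 and 14775 against 882, 3024 and 4085.5. The part of depth in this order was not tested. After thinning, a UMI of a replication gene was held by 43.75%, 42.9% and 42.6% of scored cattle germ-like cells against 43.9%, 37.5% and 36.0% of the rest. In pig germ-like cells the figures were 33.7%, 36.1% and 40.3% against 27.6%, 34.2% and 40.7%. In cattle stromal-like cells they were 40%, 64.0% and 41.0% against 9.85%, 10.7% and 10.9%. In pig stromal-like cells they were 20%, 56.25% and 46.4% against 9.09%, 10.6% and 26.4%.

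**Figure D2:**
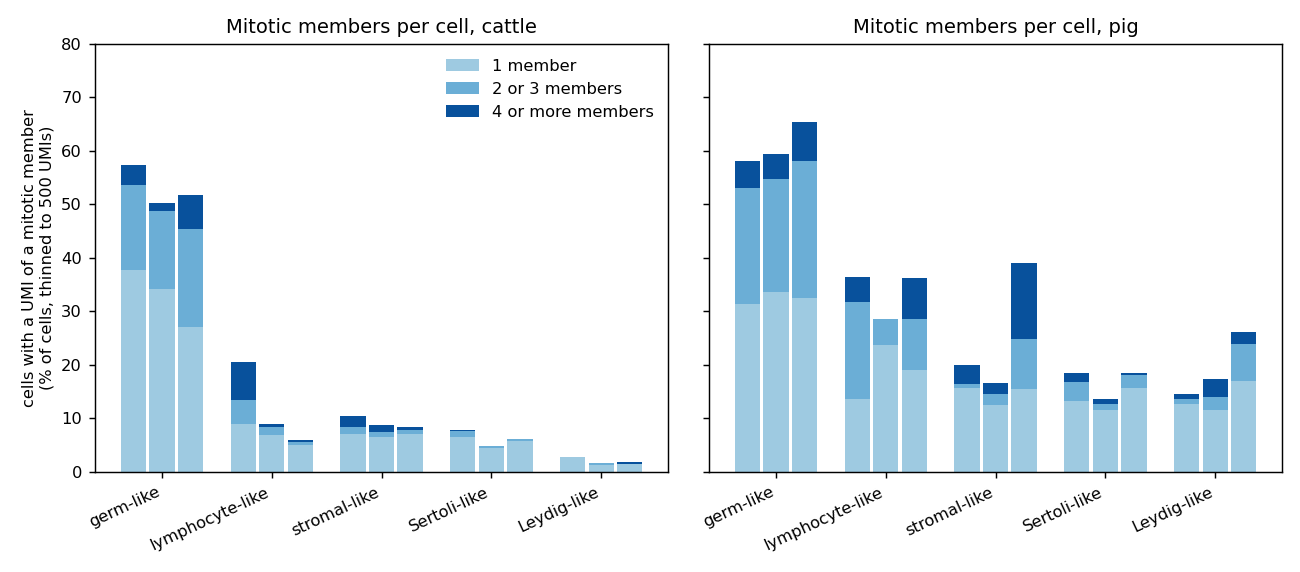
Share of cells, in percent, that held UMIs of 1, of 2 or 3 or of at least 4 different mitotic genes after thinning to 500 UMIs, as stacked bars, 1 for each animal of a species in the order 1, 2 and 3, by cell type. The part above each bar held none, 42.7% to 49.8% of cattle germ-like cells against 89.6% to 91.6% of stromal-like cells.

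The clusters showed where these cells were. In cattle, 1 small stromal-like cluster of 157 cells held 123 scored cells (78.3%), with 20 of 23 in cattle 1, 74 of 96 in cattle 2 and 29 of 38 in cattle 3, while the other stromal-like clusters had 0.0787% to 1.72%. It carried 10 stromal markers. Its leading genes included UHRF1, which maintains DNA methylation at replication, MXD3, TCF19, H2AFX, H2AFZ and DPT, and no stromal marker was among the 10. Its cells were 1.64 times as deep as typical cells of their libraries. In pig, a Sertoli-like cluster of 48 cells held 38 scored cells (79.2%). Of its cells, 47 were from pig 2, and it was 1.37 times as deep as typical cells. The other pig Sertoli-like clusters had 0.462% to 5.07%, the last being the cluster that held most Sertoli-like cells of pig 1.

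The pig stromal-like share of pig 3 came from a cluster of 307 cells in which 54 of 214 cells of pig 3 and 10 of 92 cells of pig 2 were scored. Most stromal-like cells of pig 2 and pig 1 were in other clusters. The 5 pig germ-like clusters ranged from 14.0% to 51.0%. The cluster with 51.0% (24 of 35, 2 of 7 and 26 of 60 cells in pig 1, 2 and 3) was marked by TEX101, a germ cell surface protein, at 1870 CPM. It had the germ cell marker SYCP3 at 76.5 CPM and SALL4 and UTF1 at 0 CPM. The paper describes spermatocytes of early meiotic prophase in the pig tissue. Whether the scored cells of this cluster were entering meiosis was not tested. In cattle the lymphocyte-like cells fell into 2 clusters with 4.32% (50 of 1158 cells) and 0.906% (7 of 773), the second of which was almost wholly from cattle 3.

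**Figure D3:**
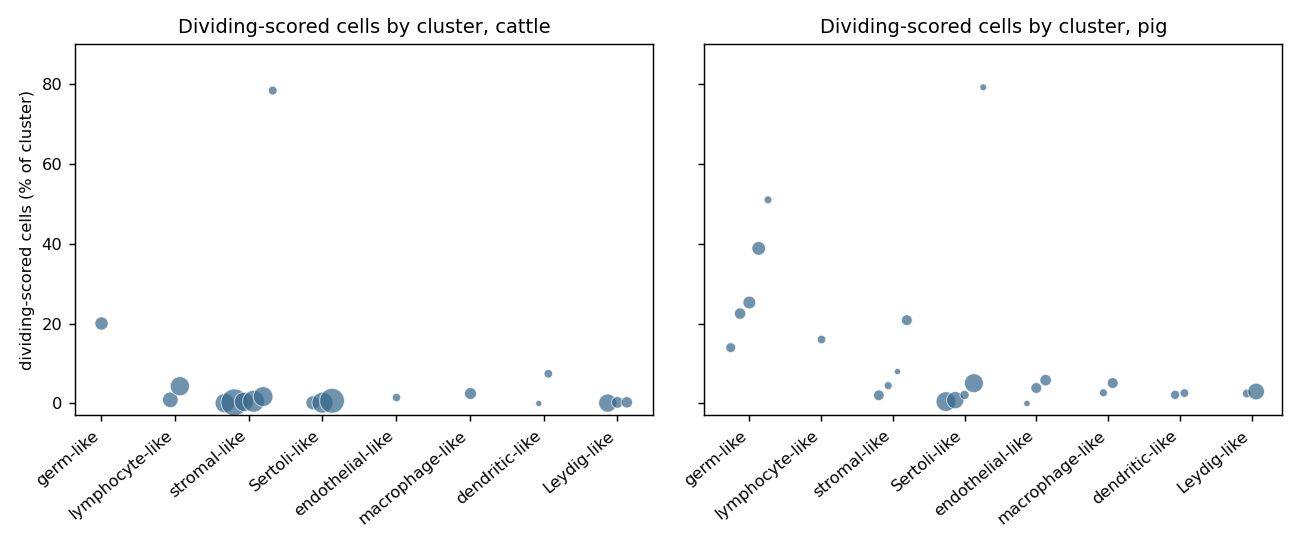
Share of cells scored as dividing in each named cluster, in percent of its cells with at least 500 UMIs, by cell type; each point is 1 cluster and its area grows with the number of cells. A stromal-like cluster in cattle (78.3%) and a Sertoli-like cluster in pig (79.2%) stand above every other cluster of their types.

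The summed levels put germ-like cells highest in each bull. The mitotic genes together made up 1879, 1584 and 1841 CPM of the germ-like RNA in cattle 1, 2 and 3, against 274.4, 126.3 and 126.5 CPM in Sertoli-like, 606, 595 and 396 in stromal-like, 1525, 385 and 226 in lymphocyte-like and 66.9, 65.2 and 76.4 in Leydig-like cells. The RNA in cattle barcodes of at most 50 UMIs, which hold no cell, had 316, 429 and 361 CPM of the same genes. The Leydig- and Sertoli-like sums of each bull and the lymphocyte-like sums of cattle 2 and cattle 3 lay below that free RNA, and the germ-like sums above it. In pig the sums were 2504, 2418 and 2637 CPM in germ-like, 692, 499 and 469 in Sertoli-like, 1219, 747 and 3527 in stromal-like, 2543, 1504 and 2423 in lymphocyte-like and 417, 746 and 857 in Leydig-like cells. In pig the germ-like sums overlapped those of stromal-like cells, through pig 3, and those of lymphocyte-like cells, through pig 1 and on few cells. The 10 replication genes listed in cattle summed to 1350, 1008 and 954 CPM in germ-like cells and to 975, 341 and 280 CPM in lymphocyte-like cells. The 11 listed in pig summed to 846, 1067 and 1196 CPM in germ-like and to 1491, 869.5 and 1555 CPM in lymphocyte-like cells, which were higher in pig 1 and pig 3.

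**Figure D4:**
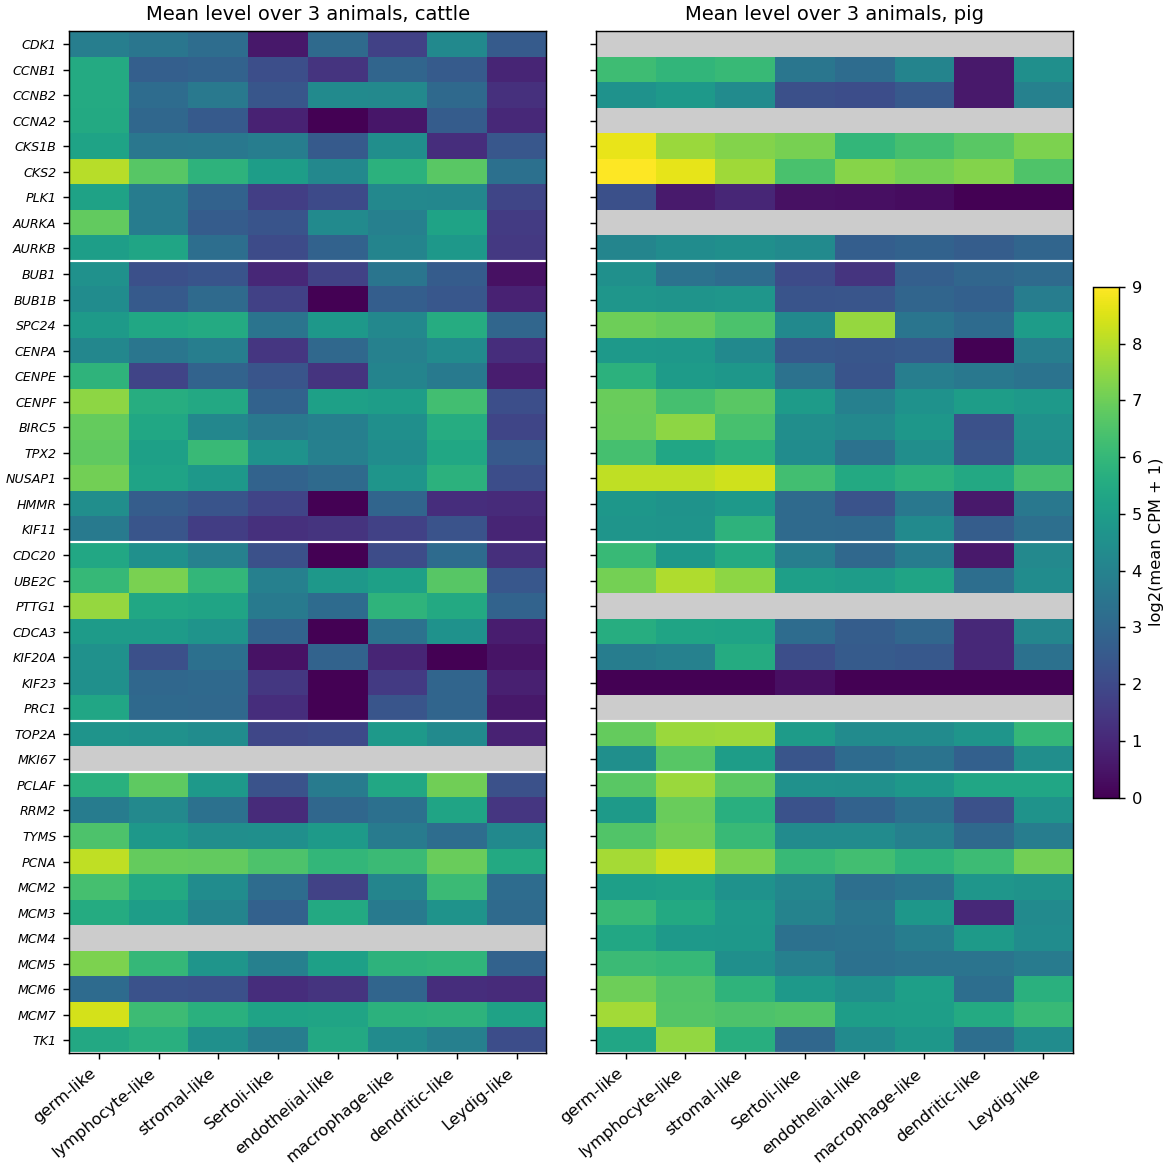
Level of each gene in each cell type as log2 of the mean CPM over 3 animals plus 1, with genes in rows grouped by role (kinases and cyclins, kinetochore and spindle, anaphase and cytokinesis, chromosome, replication) and gray where a symbol was not listed. The color should be compared along a row, since levels are not per gene length; AURKA in cattle is brightest in germ-like cells (109 to 118 CPM).

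To test single genes, UMIs were summed over the cells of a type and over all other cells of the same animal and compared with edgeR's quasi-likelihood test across all genes, with Benjamini-Hochberg adjustment at 0.05. Of 38 genes tested in cattle germ-like cells, 22 were higher and 1 lower, where 23.1% and 26.7% of all 14200 genes were called in those directions. Over the 38 genes the log2 fold change had a median of 1.25, and over all genes a median of -0.17. In pig germ-like cells 18 of 34 were higher and none lower (17.1% and 20.1% of 15217 genes were called), with a median of 1.29 against -0.09. DESeq2 called 24 higher in cattle and 20 in pig, and none lower. The numbers depended on single libraries, since 12 genes were higher in cattle without cattle 2 and 13 without cattle 3, and in pig 5 without pig 1 and 3 without pig 2. Over all genes, 1712 of 13700 were higher without cattle 2 and 1522 of 12571 without cattle 3. In pig 1392 of 15009 were higher without pig 1 and 921 of 14485 without pig 2. In these pig fits the 34 genes stood less far above all genes than with all 3 pigs. A smaller share of dividing cells and a lower level per cell cannot be told apart in such sums. The make-up of the other cells also differed between species. Germ-like cells were 2.38%, 2.69% and 3.69% of the cells of cattle 1, 2 and 3, and 20.7%, 9.85% and 31.3% of those of pig 1, 2 and 3. The fits sum UMIs, and the deeper germ-like cells held a larger part of the UMIs than of the cells. In cattle 1, 2 and 3 they held 292673 of 3342000, 1313690 of 16682146 and 3732407 of 32956134 UMIs. In pig 1, 2 and 3 they held 2055527 of 4357202, 3946864 of 19064856 and 11581205 of 20732293. The part of this in the Sertoli-, stromal- and lymphocyte-like comparisons was not tested. The p-values of these fits measure the spread between the 3 animals of a species and take both sums of an animal as independent.

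The TMM normalization of edgeR assumes that most genes do not differ. Relative to scaling by total UMIs, its factors lowered germ-like against other cells by a mean of 1.14 on the log2 scale in cattle. In pig the mean was 0.36. They raised Sertoli-like cells by a mean of 0.38 and 0.44. For stromal- and lymphocyte-like cells the mean shift of the factors was up by 0.32 and 0.47 in cattle and down by 0.16 and 0.27 in pig. A mean shift need not be the movement of the fitted fold changes. In pig lymphocyte-like cells these hardly moved, with a median over all genes of -0.636 with TMM and -0.634 with total UMIs. With total UMIs alone, germ-like cells had 32 genes higher and none lower in cattle, and 21 and none in pig. Over all genes that scaling turned the cattle germ-like split of 3286 higher and 3795 lower into 6250 and 1828, and the pig split of 2601 and 3056 into 3575 and 2206. For Sertoli-like cells the splits went from 1934 and 2714 to 1179 and 3949 in cattle and from 1728 and 2258 to 930 and 3612 in pig. In cattle, they went from 2016 and 2444 to 1320 and 3345 for stromal-like cells and from 1199 and 2061 to 795 and 3751 for lymphocyte-like cells.

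**Figure D5:**
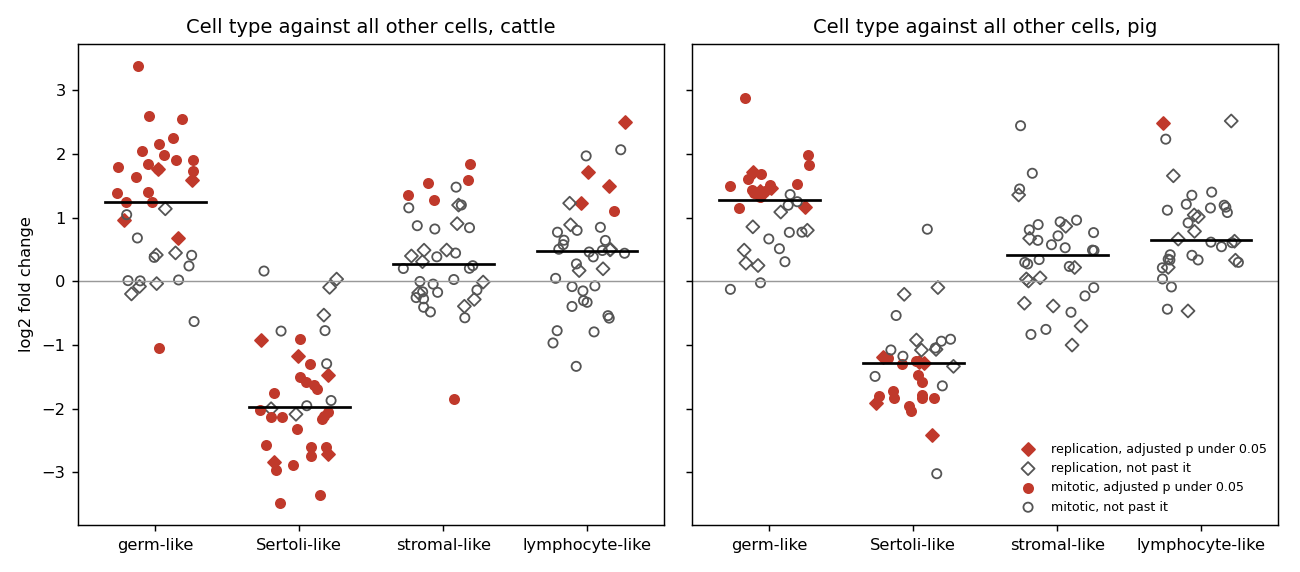
Log2 fold change of each gene between a cell type and all other cells of the same animals, for cattle and pig; circles are mitotic and diamonds replication genes, filled where the adjusted p of edgeR's test was under 0.05, and the bars mark medians. The medians were 1.25 and 1.29 in germ-like cells and -1.98 and -1.29 in Sertoli-like cells of cattle and pig.

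Among the kinases and cyclins, 6 of 9 tested genes rose in germ-like cells of cattle, as did 4 of 6 in pig (23.1% and 17.1% of all genes were higher). AURKA, the kinase that matures the spindle poles, had 109, 110 and 118 CPM in cattle germ-like cells against 8.20, 3.71 and 4.04 in the other cells, and it was not listed in pig. The 3 germ-like values lay far above every other value, with a log2 fold change of 3.39 ± 0.35 (SE, adjusted p = 6.9e-05). CCNB1, the B cyclin that activates CDK1, had 58.1, 38.8 and 37.0 CPM against 4.59, 4.36 and 3.59 in cattle. In pig it had 69.1, 61.6 and 86.0 CPM against 14.8, 13.6 and 32.0. CCNB1 was higher in every animal without overlap, by a log2 fold change of 2.25 ± 0.32 (adjusted p = 4.0e-04) for cattle and 1.5 ± 0.40 (adjusted p = 0.0193) for pig. CKS2, a small subunit of the cyclin-dependent kinases, had 304, 225 and 245 CPM in cattle germ-like cells against 42.6, 51.7 and 37.2 in the others, and 655, 760 and 622 CPM against 89.9, 91.5 and 217 in pig. Its log2 fold changes were 1.41 ± 0.24 (adjusted p = 0.0011) and 1.99 ± 0.38 (adjusted p = 0.0052), again with no overlap between the groups. Here and below, overlap is read in CPM, which is scaled by total UMIs, and a lack of it is no test. The germ-like values of CDK1, CDC20 and TOP2A in cattle and of CCNB2, TOP2A and UBE2C in pig did not overlap either, and these genes did not pass.

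CCNB2, another B cyclin, had 44.4, 33.5 and 54.7 CPM against 10.5, 5.73 and 4.55 in cattle and rose by a log2 fold change of 1.64 ± 0.40 (adjusted p = 0.0079). In pig it had 16.5, 23.1 and 29.5 CPM against 2.61, 5.36 and 14.4 and did not pass (1.25 ± 0.57, adjusted p = 0.112). PLK1, a kinase of mitotic entry and exit, rose by 1.80 ± 0.40 (adjusted p = 0.0047) in cattle with 27.3, 33.5 and 44.2 CPM against 7.54, 3.71 and 3.97. In pig PLK1 passed the test (adjusted p = 0.0372) at only 5.84, 2.53 and 2.25 CPM, the other cells holding 0, 2 and 7 UMIs. CDK1, the mitotic kinase itself, did not pass in cattle germ-like cells, at 17.1, 8.37 and 15 CPM against 6.89, 4.10 and 4.76 (0.24 ± 0.43, adjusted p = 0.67). AURKB, the kinase that corrects chromosome attachment, did not pass in either species (0.68 ± 0.53 and -0.12 ± 0.38). CKS1B in cattle differed mainly by library, with 95.7 CPM in germ-like cells of cattle 1 and 3.81 and 10.2 in the others.

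Of the 11 kinetochore and spindle genes, 8 rose in germ-like cells of cattle, and 7 did in pig (23.1% and 17.1% of all genes). BIRC5, the survivin subunit of the chromosomal passenger complex, had 116, 129 and 105 CPM against 21.6, 13.7 and 8.08 in cattle and 144, 115 and 102 against 28.7, 18.5 and 57.2 in pig. CENPF, a kinetochore protein of late G2 and mitosis, had 150, 142 and 235 CPM against 25.3, 27.3 and 21.5 in cattle and 136, 114 and 118 against 38.2, 22.7 and 49.1 in pig. For both genes all germ-like values were above all values of other cells. The log2 fold changes of BIRC5 were 1.91 ± 0.36 (adjusted p = 0.0019) for cattle and 1.43 ± 0.42 (adjusted p = 0.0272) for pig, and those of CENPF were 1.74 ± 0.30 (adjusted p = 0.0012) and 1.38 ± 0.34 (adjusted p = 0.0142).

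SPC24, a subunit of the NDC80 complex that holds microtubules, went against the other called genes in cattle. It had 41.0, 18.3 and 27.3 CPM in cattle germ-like cells and 33.8, 26 and 17.5 in the other cells, so the groups overlapped, yet edgeR called it lower by 1.04 on the log2 scale (-1.04 ± 0.37, adjusted p = 0.0399). With scaling by total UMIs the value was 0.08 (adjusted p = 0.88), so the call depended on the normalization. It was also lost with DESeq2 (-0.92, adjusted p = 0.075), without cattle 2 (-0.72, adjusted p = 0.32) and without cattle 3 (-1.25, adjusted p = 0.10). In pig SPC24 had 117, 105 and 159 CPM in germ-like cells against 24.3, 21.6 and 57.9, without overlap, and rose by 1.54 ± 0.43 (adjusted p = 0.0226). The difference between the species' effects was 2.73 ± 0.60 on the log2 scale (adjusted p = 0.0069), the single gene called of 33 tested for a difference in germ-like effect. No gene was lower in that test, where 9.33% of 12770 genes were called higher in pig and 6.24% lower. With scaling by total UMIs 3 genes were called, and the split over all genes went from 1192 higher and 797 lower to 540 and 2133. No gene was called without cattle 2, and 4 were called without pig 3. Among all genes, 430 of 12685 were higher and 232 lower without cattle 2, and 1035 of 12556 and 572 without pig 3.

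Of the anaphase and cytokinesis genes, 4 of 7 rose in germ-like cells of cattle, as did 2 of 4 in pig (23.1% and 17.1% of all genes). PTTG1, securin, had 212, 176 and 185 CPM against 32.1, 23.6 and 14.6 in cattle and was not listed in pig. Its log2 fold change was 1.90 ± 0.31 (adjusted p = 9.3e-04), with the groups far apart. CDC20, an activator of the anaphase-promoting complex, had 61.5, 30.4 and 32.4 CPM against 13.4, 7.87 and 5.27 in cattle, where it did not pass (1.05 ± 0.43, adjusted p = 0.066). In pig CDC20 rose by 1.61 ± 0.44 (adjusted p = 0.0197), with 55.0, 65.9 and 78.4 CPM against 8.69, 13.6 and 28.6. UBE2C, the ubiquitin-conjugating enzyme of that complex, had 106, 29.7 and 55.2 CPM against 67.6, 36.6 and 21.8 in cattle, so the groups overlapped (-0.63 ± 0.50, adjusted p = 0.33). In pig UBE2C had 124, 127 and 163 CPM against 27.4, 43.5 and 121 (0.77 ± 0.50, adjusted p = 0.25). KIF23 had 1 UMI in all pig cells and was not tested.

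The chromosome genes did not pass in germ-like cells of either species, although TOP2A passed in pig with the animal as a replicate block (0.86 ± 0.23, adjusted p = 0.012), as did CCNB2, UBE2C and PCNA. TOP2A, the topoisomerase that untangles chromosomes, had 23.9, 16.0 and 33.8 CPM against 11.8, 12.3 and 10.9 in cattle (0.01 ± 0.36, adjusted p = 0.98) and 104, 93.0 and 151 against 35.6, 35 and 90.8 in pig (0.77 ± 0.44, adjusted p = 0.19). MKI67, whose protein is the Ki-67 proliferation marker, had 19.9, 9.88 and 34.8 CPM against 9.56, 5.09 and 27.4 in pig (0.31 ± 0.68, adjusted p = 0.75). Each pig had more MKI67 in germ-like than in other cells, but the values of the groups overlapped.

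Replication genes rose for 4 of 10 in germ-like cells of cattle and for 5 of 11 in those of pig (23.1% and 17.1% of all genes). MCM7, a subunit of the replicative helicase, had 420, 302 and 313 CPM against 53.8, 37.8 and 47.2 in cattle and 207, 219 and 223 against 70.8, 95.1 and 60.8 in pig. MCM5, another helicase subunit, had 188, 135 and 127 CPM against 28.2, 21.1 and 17.9 in cattle and 69.6, 62.3 and 78.2 against 15.6, 14.4 and 20.3 in pig. Neither gene overlapped between the groups. The log2 fold changes of MCM7 were 1.76 ± 0.24 (adjusted p = 2.9e-04) and 1.17 ± 0.26 (adjusted p = 0.0096), and those of MCM5 1.59 ± 0.27 (adjusted p = 0.0010) and 1.72 ± 0.30 (adjusted p = 0.0040). MCM3, also of the helicase, rose by 0.68 ± 0.25 (adjusted p = 0.048) for cattle and 1.43 ± 0.31 (adjusted p = 0.0090) for pig. TYMS, which makes thymidylate, rose by 0.96 ± 0.27 (adjusted p = 0.0138) and 1.36 ± 0.41 (adjusted p = 0.0281). PCNA, the sliding clamp, did not pass (0.45 ± 0.24 and 0.80 ± 0.37), and neither did RRM2, a subunit of ribonucleotide reductase (-0.08 ± 0.37 and 0.25 ± 0.81). MCM6 rose in pig germ-like cells (83.7, 147 and 155 CPM against 23.5, 43.5 and 42.9), by 1.46 ± 0.35 (adjusted p = 0.0122).

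Sertoli-like cells had less of most division genes. In cattle none of the 38 was higher and 27 were lower (13.6% and 19.1% of all genes were called), and in pig none of 34 was higher and 18 lower (11.4% and 14.8%). The median log2 fold changes were -1.98 and -1.29, against -0.15 and -0.13 over all genes. DESeq2 also called none higher in Sertoli-like cells of either species. TOP2A had 5.93, 0.964 and 1.37 CPM in cattle Sertoli-like cells against 14.6, 19.5 and 18.4 in the others and fell by 2.96 on the log2 scale (SE 0.50, adjusted p = 0.0023). CENPF had 7.42, 3.70 and 7.29 CPM against 43.5, 55.7 and 61.1 (-2.74 ± 0.32, adjusted p = 4.1e-04). The groups of both genes lay far apart. CDK1 had 0, 0.161 and 1.37 CPM against 9.75, 6.98 and 7.75 (-2.89 ± 0.68, adjusted p = 0.0115). Without cattle 2 or cattle 3, 2 and 8 genes were lower in cattle, and without pig 2 or pig 3, 5 and none in pig. Over all genes, 662 of 13700 and 826 of 12571 were lower in those cattle fits. In those pig fits 425 of 14485 and 207 of 14292 were lower. The 2 of 38 without cattle 2 were near the share over all genes.

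In pig Sertoli-like cells, CKS2 had 91.7, 69.9 and 91.4 CPM against 445, 419 and 463 (-1.95 ± 0.24, adjusted p = 0.0036) and CCNB1 had 11.9, 12.4 and 7.17 CPM against 49.9, 36.7 and 65.3 (-1.81 ± 0.35, adjusted p = 0.0102). Neither gene overlapped between the groups. MKI67 fell by 2.03 on the log2 scale (SE 0.59, adjusted p = 0.0362), from 17.4, 10.2 and 33.1 CPM in the other cells to 5.50, 2.61 and 4.48. AURKB had 21.1, 16.6 and 17.9 CPM in pig Sertoli-like cells against 9.80, 11.9 and 19.9, which overlap (0.82 ± 0.36, adjusted p = 0.124), but 5.93, 1.61 and 1.80 against 20.2, 10.6 and 8.52 in cattle (-2.13 ± 0.56, adjusted p = 0.0179). Of 33 genes tested for a difference between the species' Sertoli-like effects, AURKB was higher in pig (2.87 ± 0.69, adjusted p = 0.0129) and CKS2 lower (-1.15 ± 0.33, adjusted p = 0.0321), where 5.49% of all genes were called higher and 6.25% lower. CKS2 in cattle Sertoli-like cells had 32.6, 31.8 and 29.6 CPM against 73.8, 85.3 and 73.3 (-0.90 ± 0.23, adjusted p = 0.0153). No gene was called for this difference without cattle 2, cattle 3 or pig 2, and 5 were called without cattle 1. Among all genes, 785 of 12751 were higher and 882 lower without cattle 1, and 282 of 12685 and 310 without cattle 2. The numbers were 291 of 12517 and 285 without cattle 3, and 469 of 12588 and 571 without pig 2.

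In cattle stromal-like cells 5 genes were higher and 1 lower (14.2% and 17.2% of all genes were called), a share of members no larger than that of all genes, with a median of 0.28 against -0.08. SPC24 had 58.1, 47.7 and 28.3 CPM against 23.8, 11.4 and 11.9 (1.85 ± 0.38, adjusted p = 0.0082). TOP2A had 14.5, 25.1 and 19.6 CPM against 12.1, 4.77 and 9.21 (1.60 ± 0.39, adjusted p = 0.0157). The stromal-like values of both genes were above those of the other cells in each bull and did not overlap. The other 3 that rose were CENPA, the histone of the centromere (1.54 ± 0.33), KIF20A, a motor of cytokinesis (1.36 ± 0.36), and TPX2, which activates AURKA on the spindle (1.27 ± 0.37). AURKA was lower, with 6.78, 3.90 and 4.66 CPM against 21.7, 17.2 and 25.4 (-1.84 ± 0.30, adjusted p = 0.0032). The calls depended on the libraries, with 12 genes higher without cattle 1 and none without cattle 2 or cattle 3, and the median turned to -0.01 without cattle 2. Over all genes, 2907 of 14053 were higher without cattle 1, 493 of 13700 without cattle 2 and 490 of 12571 without cattle 3. With scaling by total UMIs, 3 were higher and 2 lower.

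In pig stromal-like cells no gene passed edgeR's test in either direction (2.78% and 1.26% of all genes were called), 3 had an unadjusted p under 0.05, and DESeq2 called none (4.07% and 2.1% of all genes). The values of pig 3 stood apart. TOP2A had 103, 72.5 and 444 CPM against 66.8, 45.0 and 108 in the other cells (1.45 ± 0.66, adjusted p = 0.25), and UBE2C had 93.8, 62.5 and 375 CPM against 72.5, 60.7 and 132 (0.96 ± 0.64, adjusted p = 0.42). Both were higher in stromal-like cells of every pig. The median over the 34 genes was 0.41 against -0.31 over all genes, and it turned to -0.46 against -0.17 without pig 3. With all 3 pigs and every barcode of at least 500 UMIs it was -0.59 against -0.16. Of the 34 genes, 5 then had a positive log2 fold change, where 25 had in the main fit. The direction for the set therefore depended on which barcodes were called as cells. For a difference between the species' stromal-like effects edgeR called none of 33 genes in either direction, 1 having an unadjusted p under 0.05, where 1.35% and 2.25% of all genes were called. Over all genes that split went from 172 higher and 287 lower to 326 and 94 with scaling by total UMIs.

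In lymphocyte-like cells few of the genes were called. In cattle 5 of 38 were higher and none lower (8.44% and 14.5% of all genes were called), with a median of 0.47 against -0.39, and 4 of the 5 were replication genes. PCLAF, a partner of PCNA, had 244, 57.5 and 24.3 CPM against 20.9, 26.8 and 15.5 (2.50 ± 0.60, adjusted p = 0.0131). TK1, thymidine kinase, had 88.2, 30.4 and 30.8 CPM against 19.3, 17.6 and 17.7 (1.71 ± 0.34, adjusted p = 0.0044). Cattle 1 was the highest for both, and TK1 did not overlap. MCM3 rose by 1.5 ± 0.28 (adjusted p = 0.0031), MCM5 by 1.23 ± 0.36 (adjusted p = 0.0324) and CKS2 by 1.11 ± 0.26 (adjusted p = 0.0102). UBE2C, at 370, 49.3 and 15.2 CPM, and AURKB, at 101, 5.75 and 6.93 CPM, were high in cattle 1 alone and did not pass. Without cattle 1, the animal with the highest sums, 5 were higher and 4 lower (KIF20A, PTTG1, AURKA and PRC1), and the median turned to -0.06, with 18 of 38 above 0. Without cattle 2, 2 genes were higher, and 3 without cattle 3 or with scaling by total UMIs. Among all genes, 1920 of 14053 were higher and 2871 lower without cattle 1. The numbers higher were 496 of 13700 without cattle 2 and 522 of 12571 without cattle 3.

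In pig lymphocyte-like cells 1 of 34 genes was higher and none lower (1.79% and 0.414% of all genes were called), with a median of 0.65 against -0.64. This was TK1, with 307, 58.8 and 191 CPM against 24.0, 13.9 and 46.1 (2.49 ± 0.60, adjusted p = 0.0264). RRM2, with 175, 35.2 and 158 CPM, and MKI67, with 175, 47.0 and 78.2 CPM against 13.6, 5.90 and 30.2, did not pass (2.52 ± 0.67, adjusted p = 0.051, and 2.23 ± 0.62, adjusted p = 0.064). MKI67 was higher in every pig. These values rest on 22, 21 and 105 cells, and no gene was called without pig 1 or pig 3, and 2 without pig 2. Over all genes, 142 of 15009 were higher without pig 1, 298 of 14485 without pig 2 and 114 of 14292 without pig 3. Without pig 3 the median was 0.03.

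Because a type and the other cells come from the same animal, the fit was repeated with the animal as a replicate block, which raised the counts in several comparisons. In cattle stromal-like cells 16 genes were then higher and 3 lower (27.5% and 30.5% of all genes), among them UBE2C (1.42 ± 0.20, adjusted p = 4.0e-07) and CDK1 (1.25 ± 0.28, adjusted p = 4.1e-04). In cattle lymphocyte-like cells 9 were higher and 2 lower (14.9% and 24.1%). The calls added there were CENPE, KIF20A, PCNA, UBE2C, AURKB and MCM2, so both mitotic and replication genes were among them. The 2 lower genes are among these added calls. In pig stromal-like cells 5 were higher (KIF20A, KIF11, TOP2A, RRM2 and NUSAP1) and 4 lower (CKS2, MCM5, CKS1B and MCM7), where 8.72% and 13.4% were called, and in pig lymphocyte-like cells 5 were higher and none lower (3.55% and 3.2%), namely TK1, RRM2, MKI67, PCLAF and UBE2C. TOP2A in pig stromal-like cells was then 1.08 ± 0.26 (adjusted p = 3.0e-04) and MKI67 in lymphocyte-like cells 2.1 ± 0.50 (adjusted p = 9.5e-04).

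The block also moved calls in the other comparisons. In cattle 26 genes were higher and 2 lower in germ-like cells (30.4% and 34.8% of all genes), with CDC20, PCNA, AURKB and MCM2 added and UBE2C joining SPC24 as lower, and 26 higher and none lower in pig (21.4% and 24.9%), where TOP2A, CCNB2, UBE2C, PCNA, BUB1B, CENPA, MCM4 and PCLAF were added. The cattle call of UBE2C depends on the normalization, since its value was 0.51 with scaling by total UMIs and no block, and UBE2C was higher in germ-like cells of 2 of 3 bulls in CPM. In Sertoli-like cells CKS1B became higher in cattle, beside 35 lower (25.3% and 30.5%), and AURKB in pig, beside 27 lower (18.5% and 23.3%). For the difference between species, 8 genes were higher in pig and none lower in germ-like cells (16.4% and 10.7%), 8 higher and 5 lower in Sertoli-like cells (12.5% and 13.9%), and 1 higher and 9 lower in stromal-like cells (7.88% and 17.5%).

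Further division genes outside the 40, from lists of the same pathways, were read from the same fits. These lists too were chosen with earlier results of these data known. Of 45 other mitosis genes 28 were higher in germ-like cells of cattle with none lower (23.1% and 26.7% of all genes were called), and of 48 in pig 23 were higher and 1, TUBB, a tubulin, was lower (-0.83), beside 17.1% and 20.1% of all genes. Other replication genes were higher for 13 of 29 in cattle, with GMNN, an inhibitor of replication licensing, lower (-0.66), and for 16 of 24 in pig. The GMNN value is smaller in size than the mean TMM shift of 1.14 in cattle germ-like cells, so its direction may depend on the normalization. In Sertoli-like cells 19 other mitosis genes were lower and none higher in cattle (19.1% and 13.6% of all genes), and 22 lower and 1 higher (TUBB, 0.79) in pig (14.8% and 11.4%). Among 17 genes that brake the cycle, 11 were lower and none higher in cattle germ-like cells, where 26.7% of all genes were lower. CDKN1A, the p21 inhibitor, was lower there (-2.90) and higher in cattle Sertoli-like cells (3.98 ± 0.36, adjusted p = 1.3e-04), while CDKN1C, the p57 inhibitor, was lower in both (-3.28 and -4.92). In pig germ-like cells 4 of 14 brakes were lower (20.1% of all genes), among them BTG1 (-2.07).

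Last, scored cells were compared with the remaining cells of their own type, over genes other than the 40, in the 3 types with at least 10 scored cells in each animal. Since the cells were chosen by their mitotic genes, higher levels of other division genes follow from that choice. The p-values of such genes are therefore no independent evidence of division. Of the 165 scored stromal-like cells of cattle 123 lay in the cluster described above, so the stromal-like comparison is largely one between clusters. MXD3 and H2AFX had been left in for the clustering. In cattle stromal-like cells 242 of 11471 genes were higher in scored cells and 58 lower (2.11% and 0.506%). The number was 586 in all without cattle 1, 160 without cattle 2 and 161 without cattle 3, and 475 higher and 539 lower with the animal as a replicate block (4.14% and 4.7%). Of 41 other mitosis genes 39 were higher and none lower (median log2 fold change 4.90, against -0.32 over all genes), and of 28 other replication genes 17 were higher and none lower (median 2.30). The 10 genes with the smallest p were PBK, TACC3, CDKN3, MXD3, H2AFX, PIMREG, ASPM, CDCA8, CENPW and MAD2L1. Of these, MXD3, a MAX-binding repressor, had 201, 253 and 242 CPM in scored cells against 3.30, 1.61 and 0.984 in the rest (7.09 ± 0.45, adjusted p = 4.2e-08).

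Of the genes outside mitosis and replication, CDKN2C, the p18 inhibitor of CDK4 and CDK6, had 268, 393 and 400 CPM in scored stromal-like cells of cattle against 28.6, 24.4 and 14.7 in the rest (3.78 ± 0.37, adjusted p = 2.6e-06). TAGLN, a contractile protein of smooth muscle and myoid cells, had 446, 122 and 303 CPM against 1888, 1236 and 1658 (-2.87 ± 0.37, adjusted p = 7.9e-05). The scored cells of every bull were above the rest for CDKN2C and below it for TAGLN. Like the other stromal markers, TAGLN was not left out of the clustering and served to name clusters. Since most scored cells lay in 1 cluster, the p-values of these markers are no independent evidence. ACTA2, another contractile gene, was lower (-1.36, adjusted p = 0.0142). The fibroblast markers DCN, LUM, PDGFRA, COL1A1 and TCF21 did not pass. Values of the stromal markers MYH11, CNN1, COL1A2 and COL3A1 are not given here, so no contrast between contractile and fibroblast genes is drawn.

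In germ-like cells edgeR called no gene between scored and remaining cells, of 11559 in cattle and 13997 in pig, with 497 higher and 118 lower at an unadjusted p under 0.05 in cattle and 191 and 256 in pig. DESeq2 was not run for this comparison. Of the other mitosis genes, 46 of 48 had a positive log2 fold change in pig (median 1.08, against -0.04 over all genes) and 37 of 42 in cattle (median 0.39, against -0.06). With the animal as a replicate block, 350 were higher and 66 lower in cattle (3.03% and 0.571% of genes) and 660 and 413 in pig (4.72% and 2.95%), among them 40 of the 48 other mitosis genes in pig and 3 of 42 in cattle as higher, and without cattle 2, 85 were called in cattle.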

How the data were processed

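Total testicular cells of 3 cattle and 3 pigs were captured on the 10x platform. The authors deposited raw UMI counts per gene and barcode for each library; per the labels they used Cell Ranger 2.1.0 with the builds ARS-UCD1.2 and Sscrofa11.1, while the headers of the pig matrices name another version. The cattle matrices held every possible barcode (737280 each) and the pig matrices held 6220, 22920 and 8808 barcodes. The members and gene lists were chosen with earlier results of these data known.

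Barcodes were called as cells when their UMIs reached the 99th percentile of the top 3000 barcodes divided by 10, which gave 3544, 8751 and 6208 cattle and 3246, 3932 and 2277 pig cells, with at least 200 genes. Doublets were ranked by Scrublet and removed at a rate of 0.8% per 1000 cells. Its automatic threshold marked 5, 503 and 317 cattle and 120, 0 and 13 pig cells, so it was not used. Cells were clustered with scanpy 1.11.5 (2000 variable genes, 30 components, 15 neighbors, resolution 1) without the 40 genes, other cell cycle genes and mitochondrial genes. A cluster took the type with the highest mean log2 fold over its markers against the median cluster, with at least 3 markers 2 times above it and in at least 2% of cells. It stayed unnamed when another type led its 10 leading genes, when a second type with at least 3 markers reached 0.75 of the best score, or when its depth was low. These naming rules were settled after the clusters had been seen. HSD17B3 was dropped as a Leydig marker after its levels were seen, since in pig it averaged 572 CPM in Sertoli-like and 51.7 CPM in Leydig-like cells.

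UMI counts were summed per animal over a type and over its other cells and tested with edgeR 4.0.16 (TMM, quasi-likelihood, R 4.3.3) over all genes with at least 10 counts, with DESeq2 1.42.0 as an alternative. The script was tested on simulated data. CPM are UMIs per 1e+06 UMIs of such a sum. Every member could be named, with full statistics for a fixed set of well-known members and for any member called against the majority. The sums of a type and of the other cells come from the same animal, and their deviations from the group means correlated by 0.188 to 0.479, so the numbers pair the samples. The main fits left this pairing out, and the fits with a replicate block took it in. The alternatives were other scalings, no count filter, other cell calls, clusterings and score settings, and leaving out each animal. Depth limits precision: median UMIs per stromal-like cell were 688, 1548 and 4281 in cattle and 882, 3024 and 4085.5 in pig. The binomial intervals cover counting error only.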

Additional observations from a re-analysis of the deposited data

Results flagged for a closer look

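For 3 genes the difference between a cell type and the other cells was itself different in cattle and pig by edgeR's interaction test. These were 2 of 33 genes in Sertoli-like and 1 of 33 in germ-like cells. Over all genes, 5.49% were higher in pig and 6.25% lower for Sertoli-like cells, and 9.33% and 6.24% for germ-like cells. The members were thus called no more often than all genes. No Sertoli-like call was left without cattle 2, cattle 3 or pig 2, and no germ-like call without cattle 2. AURKB in Sertoli-like cells differed by 2.87 on the log2 scale and CKS2 in Sertoli-like cells by -1.15, as pig minus cattle, and SPC24 in germ-like cells by 2.73. Species, breed and age cannot be told apart in these differences. For the Sertoli-like differences, germ-like cells also made up a larger part of the other cells, and of their UMIs, in pig than in cattle. The effect of this was not tested. CCNB1 in lymphocyte-like cells went in opposite directions in all animals, with 8.40, 6.57 and 2.08 CPM against 9.34, 7.11 and 7.88 in the other cells of cattle and 87.7, 23.5 and 66.5 CPM against 40.1, 23.5 and 62.0 in pig, a ratio of means of 1.41 in pig. The difference was not tested for CCNB1, and in pig 2 both values round to the same number. The lymphocyte-like sums held only 237985 UMIs in cattle 1 and 22810 and 85106 in pig 1 and pig 2. Very few CCNB1 UMIs therefore lie behind these values, and the directions are uncertain.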

How the results depend on the processing

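Germ-like cells kept more members higher than lower under every alternative run. Of 1298 values of single called members under the alternatives, 1113 stayed on their side of the threshold, 184 lost the call (156 of them when an animal was left out) and 1 changed direction, SPC24 in cattle germ-like cells (0.08 with scaling by total UMIs alone). Some alternatives gave the same counts as the main fit. In cattle germ-like cells this was so with HSD17B3 kept, with cell cycle genes kept and at resolution 0.5. The 1113 therefore include repeats of the main fit and are no measure of robustness. The cause of the changes was not tested, beyond the smaller number of samples when an animal is left out. The lone or paired samples of such fits share the pooled spread.

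Leaving out an animal moved the members higher from 22 to between 12 and 24 in cattle germ-like cells, from 18 to between 3 and 21 in pig germ-like cells, from 5 to between 0 and 12 in cattle stromal-like cells, from 5 to between 2 and 5 in cattle lymphocyte-like cells (with 4 lower without cattle 1) and from 1 to between 0 and 2 in pig lymphocyte-like cells. The members lower in Sertoli-like cells went from 27 to between 2 and 32 in cattle and from 18 to between 0 and 24 in pig. Differences between species went from 2 to between 0 and 5 in Sertoli-like cells and from 1 to between 0 and 4 in germ-like cells, and genes called between scored and remaining cells from 300 to between 160 and 586 in cattle stromal-like cells and from 0 to between 0 and 85 in cattle germ-like cells.

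With the replicate block, members higher numbered 1 in Sertoli-like cells of cattle and 1 of pig, 16 in cattle stromal-like, 9 in cattle lymphocyte-like, 5 in pig stromal-like and 5 in pig lymphocyte-like cells. Species differences numbered 13 (Sertoli-like), 10 (stromal-like) and 8 (germ-like), and genes between scored and remaining cells 416 (cattle germ-like), 1014 (cattle stromal-like) and 1073 (pig germ-like). Apart from the members lower in cattle germ-, stromal- and lymphocyte-like and pig stromal-like cells, given beside their results, the block moved no other count of members by over 1.5 times. With scaling by total UMIs, 3 members were higher in cattle stromal-like and 3 in cattle lymphocyte-like cells, 28 lower in pig Sertoli-like cells, and 3 differed between species in germ-like cells. With every barcode of at least 500 UMIs, 8 were lower in pig Sertoli-like cells and 0 higher in pig lymphocyte-like cells, where DESeq2 gave 2, no count filter 4 and no doublet removal 2.

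The scored shares moved with the definition. Requiring 3 members gave 8.9% in cattle germ-like, 12.6% in pig germ-like and 1.54% in pig Sertoli-like cells. The stromal-like share of pig 3 was then 19.3%, above the highest pig germ-like share of 14.9%. The highest lymphocyte-like shares were 9.97% in cattle and 14.3% in pig, above the lowest germ-like shares of 5.94% and 11.5%. At 1000 UMIs the germ-like shares were 42.3% and 53.4% in cattle and pig, the Sertoli-like 1.33% and 7.52%, the cattle stromal-like 5.71% and the lymphocyte-like 22.2% and 31.5%. The cattle lymphocyte-like mean rests on cattle 1, where 13 of the 21 cells deep enough were scored (61.9%), against 2.87% and 1.83% in the others, and the pig one includes 5 of 9 cells of pig 1. Without thinning the shares were 90% and 90.6% (germ-like), 6.45% and 25.8% (Sertoli-like), 5.93% and 30.1% (stromal-like) and 45.4% (pig lymphocyte-like). Without CKS1B, CKS2 and PTTG1 the germ-like shares were 13% and 15.7%. The stromal-like share of pig 3 was then 21.4%, above the highest pig germ-like share of 19.1%. With the members listed in both species the cattle germ-like share was 14.9%. Keeping HSD17B3 as a Leydig marker gave 1.69% in pig Sertoli-like cells, because the cluster of 1202 cells that held most of pig 1 then went unnamed, and keeping cell cycle genes for clustering gave 30.3% in pig stromal-like cells, where pig 1 then had 5 of 8 cells scored. With every barcode of at least 500 UMIs the pig shares were 3.92% (stromal-like), 8.30% (lymphocyte-like) and 3.08% (Leydig-like), and at resolution 0.5 the pig Leydig-like share was 12.6%.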
